A study of Brassica napus with 14 samples.

Results

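Iron storage and transport were followed through seed development of Brassica napus (oilseed rape) by the transcripts of 10 Arabidopsis loci. The loci were the vacuolar iron importer VIT1 (AT2G01770), the ferritins FER1 (AT5G01600), FER2 (AT3G11050), FER3 (AT3G56090) and FER4 (AT2G40300), the vacuolar exporters NRAMP3 (AT2G23150) and NRAMP4 (AT5G67330), and the transporters OPT3 (AT4G16370), YSL1 (AT4G24120) and YSL3 (AT5G53550). Every gene whose assigned Arabidopsis locus was in this set was taken, which gave 32 genes of the 96219 in the table. B. napus carries an A and a C subgenome, so most loci have several copies, and here 15 copies lay on A and 17 on C chromosomes.

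Polyadenylated RNA came from whole ovules and whole seeds of the unmodified cultivar DH12075, grown in long days and pollinated by hand. Unfertilized ovules, labelled day 0, are called OV. Seeds are called GLOB (globular stage) at 7 days after fertilization and HEART (heart stage) at 10 days. MG is mature green seed at 28 days and DS is dry seed, labelled 35 days. There were 3 libraries for each of OV, GLOB, HEART and MG and 2 for DS, 14 in all. The deposited unit is FPKM (fragments counted relative to transcript length and library size), and each gene has a single value for a stage, so neither the spread between libraries nor their depth is known. No difference below could be tested, and each is a difference between the authors' stage values. "Higher" and "lower" in the counts mean a difference of at least 1 on the log2(FPKM + 1) scale, which is a 2-fold change for abundant genes and understates the change of low ones.

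Iron is needed by the plastids and mitochondria of the embryo, yet free iron promotes oxidative damage, so seeds store it in bound or enclosed form. In Arabidopsis most seed iron lies in vacuoles, where VIT1 puts it, and NRAMP3 and NRAMP4 release it again at germination. Ferritins are protein shells that hold iron, mainly in plastids, and iron reaches the seed from the mother plant as complexes with nicotianamine and through the phloem, steps in which YSL1, YSL3 and OPT3 take part.

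Of the 32 copies, 22 reached 1 FPKM in at least 1 stage, 7 were listed above 0 but below 1 FPKM throughout, and 3 were listed at 0 in every stage. The number at 1 FPKM or more was 19 (OV), 17 (GLOB), 17 (HEART), 16 (MG) and 14 (DS). Counts of differences use the 22 copies, which were admitted by their highest stage and so favour copies that vary. Counts over all genes use the 49417 genes that meet the same requirement. The FPKM of all genes together came to 1.51e+06 in MG, the highest total, and 446090 in OV, the lowest, so counts of copies are also given with every stage rescaled to a common sum.

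The libraries hold whole seeds, so the part played by embryo, endosperm and seed coat in any value cannot be read from them. In such bulk samples, fewer cells of a type and less RNA per cell cannot be told apart. The summed FPKM of the 3 of 3 seed coat markers with a gene in the table (BAN, TT12 and TT10) was 1.60 (OV), 226 (GLOB), 301 (HEART), 131 (MG) and 0.0780 (DS), where TT12 was listed at 0. In HEART and MG most of it was BAN, with 248 and 106 FPKM. TT12 was also lower in MG (51.5 and 7.98), while TT10 was higher there (2.00 and 17.3). The 2 of 3 endosperm markers with a gene (AGL62 and ZOU) summed to 1.53 (OV), 2.76 (GLOB), 11.6 (HEART), 5.85 (MG) and 0 FPKM (DS). AGL62 was highest in MG at 5.36, and ZOU in HEART at 6.68 with 0.485 in MG. Of the 3 embryo markers, LEC1 was listed at 65.7 FPKM in HEART and at or below 0.677 in the other stages, and CUC1 at 10.1 (OV), 10.2 (GLOB), 12.1 (HEART), 1.91 (MG) and 0.121 (DS). The third, WOX2, was highest in DS at 5.44 FPKM and at most 0.248 elsewhere, so these markers do not share a profile. The reserve genes CRU3 and OLEO1 summed to 132850 FPKM in MG, and the late maturation genes EM6 and EM1 reached 45721 FPKM in DS.

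The iron loci differed in the stage at which they were highest. FER1 and FER3 were abundant in GLOB and HEART, FER2 and NRAMP4 in MG and DS, and OPT3 in MG. On the deposited scale YSL3 was nearly level up to MG and lower in DS (9.54 FPKM). YSL1 was low and highest in OV, and VIT1 was close to absent. In the order of summed FPKM, FER3 stood first of the 10 loci in OV, GLOB and HEART, and FER2 first in MG and DS. FER2 stood ninth in each of the 3 earlier stages, with only VIT1 below it. FPKM is per length, so these orders compare levels between genes. Neighbours such as YSL3 (19.0 FPKM), FER4 (18.6), NRAMP4 (18.4) and OPT3 (17.9) in GLOB were close and cannot be ranked without a spread.

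**Figure D1:**
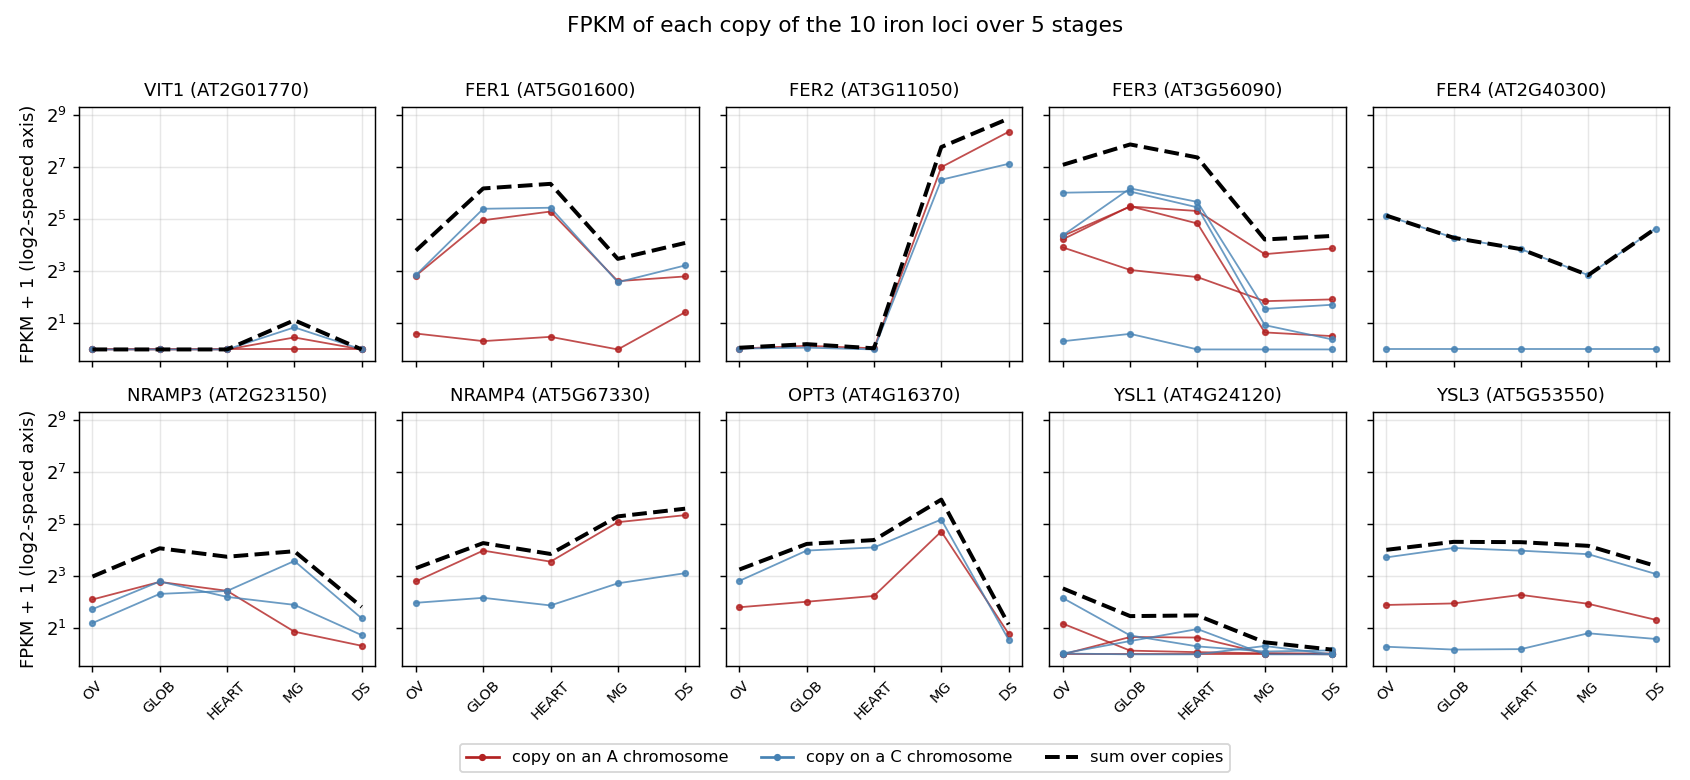
FPKM + 1 on a log2-spaced axis against stage for each of the 10 loci. Thin lines are single copies (red on A, blue on C chromosomes), and the dashed line is the sum over copies. FER2 is high in DS (467 FPKM) and MG (218 FPKM), FER1 and FER3 in HEART and GLOB, and OPT3 is highest in MG (60.6 FPKM) on this deposited scale.

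The ferritins changed places. FER2 is the ferritin that Arabidopsis seeds accumulate. Its 2 copies, BnaN05g31440 on chromosome 5 of the DH12075 assembly (A subgenome) and BnaN15g49220 on chromosome 15 (C), summed to 0.0469 FPKM (OV), 0.152 (GLOB), 0.0314 (HEART), 218 (MG) and 467 (DS). The first had 328 FPKM in DS and 127 in MG, the second 139 in DS and 90.8 in MG. Both were therefore near 0 in the 3 early stages and among the abundant transcripts later. Among the 49417 genes, BnaN05g31440 ranked 326th in DS and 1165th in MG. The summed difference was 7.73 on the log2(FPKM + 1) scale for MG over HEART and 1.09 for DS over MG. The DS over MG difference was 1.36 for BnaN05g31440 and 0.61 for BnaN15g49220, so without the A copy the locus did not reach the threshold in that step.

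The early FER2 values were very small fractions of the MG value. OV stood at 0.0215% of MG, GLOB at 0.0695% and HEART at 0.0144%. Fractions this small also occurred among other genes. The 41 genes of at least 5000 FPKM in MG had medians of 0.0129% (OV), 0.0143% (GLOB) and 0.00966% (HEART) of their MG value. In DS the FER2 sum was 214% of its MG value, where the median of those genes was 1.84%. Those genes were picked by their MG value, which is also the divisor, so low fractions in other stages are partly built in. FER2, with 218 FPKM in MG, lies far below their limit, so they do not show what is usual at its level.

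FER1, in Arabidopsis the ferritin induced in leaves by excess iron, was an early gene. Its 3 copies summed to 12.9 FPKM (OV), 71.8 (GLOB), 81.3 (HEART), 10.2 (MG) and 16.0 (DS). GLOB over OV was 5.57-fold (log2 difference 2.39) and MG over HEART 0.125-fold (log2 difference -2.88). The A copy BnaN03g00230 and the C copy BnaN13g00330 moved side by side, with 30.2 and 41.4 FPKM in GLOB, 38.4 and 42.6 in HEART, and 5.17 and 4.99 in MG. BnaN13g00330 had the largest higher value of any copy for GLOB over OV, a log2 difference of 2.55. The third gene, BnaN03g00220, carries the identifier that precedes BnaN03g00230 and the same Darmor identifier. It stayed between 5.67e-06 and 1.69 FPKM, and how reads were divided between such neighbours is not stated.

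FER3 was the most abundant iron locus of the young seed. Its 6 copies summed to 136 FPKM (OV), 234 (GLOB), 165 (HEART), 17.7 (MG) and 19.5 (DS). MG over HEART was 0.107-fold (log2 difference -3.15), and 4 of the 5 copies at 1 FPKM or more were lower by the threshold. The steepest was BnaN16g19020 on chromosome 16 (C), which had 64.0 FPKM (OV), 66.1 (GLOB), 43.0 (HEART), 0.911 (MG) and 0.307 (DS). Its log2 difference was -4.52 for MG over HEART and -5.64 for DS over OV, the largest lower values among the copies in those comparisons. The copy BnaN09g40870 on chromosome 9 (A) was lower in MG too but kept more of its level. It had 19.6 FPKM (OV), 44.0 (GLOB), 38.9 (HEART), 11.7 (MG) and 13.7 (DS), and it made up 14.4% of the FER3 sum in OV but 65.9% in MG and 70.3% in DS. BnaN18g34490 held the highest single value of the locus, 71.9 FPKM in GLOB. BnaN02g40140 was the only copy above 10 FPKM whose highest stage was OV (14.1 FPKM) while the locus sum peaked in GLOB. BnaN12g45430 stayed below 1 FPKM.

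FER4, whose Arabidopsis protein is found in plastids and mitochondria, was carried by BnaN14g58730 alone, since BnaN14g57170 was listed at 0 throughout. It had 34.4 FPKM (OV), 18.6 (GLOB), 13.5 (HEART), 6.24 (MG) and 24.0 (DS). Each of the first 4 stages was below the one before it by a difference under 1 (with a common sum, GLOB over OV was -1.37 and MG over HEART -2.16), and DS over MG was 3.86-fold (log2 difference 1.79). No other copy of at least 10 FPKM had a larger higher value in that step.

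Summed over all 4 loci, ferritin transcripts stood at 183 FPKM (OV), 325 (GLOB), 260 (HEART), 252 (MG) and 527 (DS). MG and HEART thus had nearly the same total from different genes. As a share of the FPKM of all genes, ferritin made up 0.0410% (OV), 0.0507% (GLOB), 0.0438% (HEART), 0.0167% (MG) and 0.0577% (DS), so on that scale MG was the lowest stage. FER3 made up 74.1% of the ferritin FPKM in OV, 72.1% in GLOB, 63.5% in HEART, and far less later, 7.01% in MG and 3.71% in DS. FER1 made up 31.3% in HEART. FER2 made up 0.0121% in HEART, 86.5% in MG and 88.7% in DS. These shares are ratios within a stage, so rescaling a stage leaves them as they are. DS over MG was 2.09-fold for the total.

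**Figure D2:**
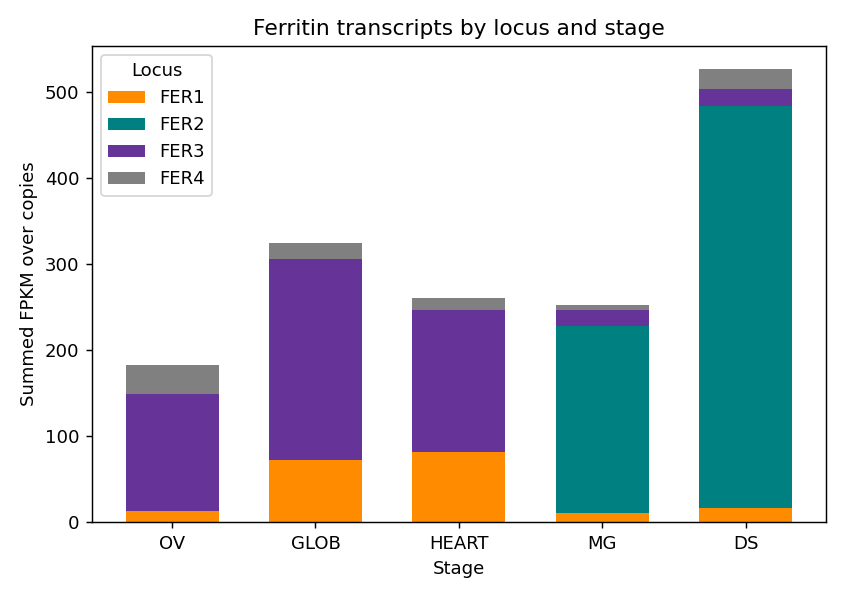
Summed FPKM over copies (vertical axis, linear) of FER1, FER2, FER3 and FER4, stacked, for each stage. FER3 and FER1 form most of the bar in GLOB and HEART, and FER2 forms 88.7% of it in DS and 86.5% in MG.

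Transcripts for vacuolar loading by VIT1 were barely detected. VIT1, which moves iron into the vacuoles of the Arabidopsis embryo, had 3 genes that share 1 Darmor identifier. BnaN12g37760 was listed at 0.800 FPKM and BnaN06g36060 at 0.376 in MG, and both were listed at 0 in all other stages, as was BnaN02g32530 in every stage. The sum of 1.18 FPKM in MG gave a log2 difference of 1.12 for MG over HEART, but no single copy reached 1 FPKM. On a common sum this difference was 0.71, and without BnaN12g37760 it was 0.46.

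The vacuolar exporters parted after HEART. NRAMP4 had 8.92 FPKM (OV), 18.4 (GLOB), 13.5 (HEART), 38.4 (MG) and 47.4 (DS), summed over 2 copies. NRAMP3, its close relative, had 6.94, 15.9, 12.5, 14.6 and 2.54 FPKM in the same order, summed over 3 copies. In HEART the pair stood nearly level, and in DS NRAMP4 was far above NRAMP3. MG over HEART was 2.85-fold for NRAMP4 (log2 difference 1.44) and 1.17-fold for NRAMP3 (0.21, but -1.03 on a common sum). DS over MG was 1.23-fold for NRAMP4 (0.30) and 0.174-fold for NRAMP3 (-2.14). The NRAMP4 difference for MG over HEART was 0.15 on a common sum, where the median of all genes was -0.98, and 1.13 relative to that median.

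The A copy of NRAMP4, BnaN07g12980, held most of the locus, with 39.7 FPKM in DS and 32.8 in MG, against 7.69 in DS and 5.63 in MG for the C copy BnaN17g20990. The NRAMP3 copies did not share a profile. BnaN18g42130 on chromosome 18 (C) had 1.30 FPKM (OV), 4.0 (GLOB), 4.41 (HEART), 11.0 (MG) and 1.61 (DS). BnaN03g23460 on chromosome 3 (A) had 3.31, 5.89, 4.43, 0.829 and 0.256 FPKM. For MG over HEART the log2 difference was 1.15 for the first and -1.57 for the second, and 75.6% of the NRAMP3 sum in MG came from BnaN18g42130. The nearly level locus sum of that step therefore holds copies that differ in direction.

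Among the transporters that bring iron to the seed, OPT3 stood out by its MG value. OPT3 moves iron in the phloem and was first known in Arabidopsis for embryos that fail without it. Its 2 copies summed to 8.58 FPKM (OV), 17.9 (GLOB), 20.0 (HEART), 60.6 (MG) and 1.21 (DS). MG over HEART was 3.03-fold (log2 difference 1.55). DS over MG was 0.0200-fold (-4.80). Both copies followed this course. BnaN18g13210 (C) had 16.2 FPKM in HEART, 35.3 in MG and 0.480 in DS, and its log2 difference of -4.61 for DS over MG was the largest lower value of that step. BnaN08g09880 (A) had 3.74, 25.3 and 0.733 FPKM in the same stages. On a common sum the MG over HEART difference of the locus was 0.24, and 1.22 relative to the median of all genes. In DS, where OPT3 was low, the seed coat and endosperm markers given above were at or near 0. The embryo markers LEC1 (0 FPKM) and CUC1 (0.121) were low there too, and WOX2 was at 5.44. From HEART to MG, where OPT3 was higher, the seed coat sum went from 301 to 131 FPKM and the endosperm sum from 11.6 to 5.85. The part of any tissue in the OPT3 value was not tested.

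The YSL proteins carry metal complexes of nicotianamine across the plasma membrane, and YSL1 and YSL3 help load Arabidopsis seeds with iron. YSL3 had 15.2 FPKM (OV), 19.0 (GLOB), 18.8 (HEART), 17.0 (MG) and 9.54 (DS). Its highest stage was 1.99 times its lowest, the smallest range of the 7 loci that stayed at 1 FPKM or more in all stages, and 0 copies passed the threshold in any of the 5 comparisons. The locus differed by -1.40 for MG over HEART and by -1.59 for DS over OV on a common sum. The C copy BnaN19g37950 held most of it, with 16.0 FPKM in GLOB. YSL1 had 4.79 FPKM (OV), 1.77 (GLOB), 1.82 (HEART), 0.378 (MG) and 0.134 (DS). Its highest copy, BnaN11g17230, had 0.654 FPKM in GLOB and 3.48 in OV, and the other 5 copies had 1.27 FPKM or less.

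**Figure D3:**
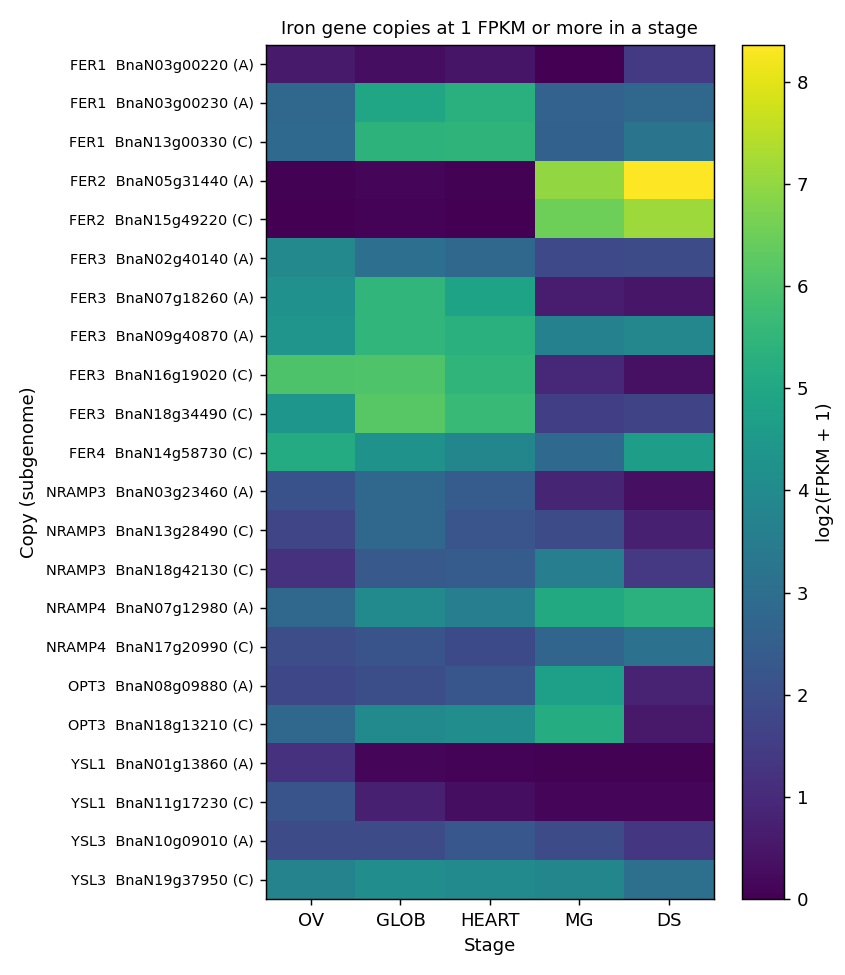
log2(FPKM + 1) (colour) of the 22 copies at 1 FPKM or more in at least 1 stage (rows, with locus and subgenome) in the 5 stages (columns). The late FER2 copies, the FER3 copy BnaN09g40870 with 11.7 FPKM in MG, and the NRAMP3 copy BnaN18g42130 with 11.0 FPKM in MG stand apart from the early rows around them.

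Counted over copies, more passed the threshold upward than downward between ovule and globular stage. For GLOB over OV, 9 of the 22 copies were higher and 2 lower, where 15.8% of all genes considered were higher and 11.0% lower. The 9 were 3 copies of FER3, 2 each of FER1 and NRAMP3, and 1 each of NRAMP4 and OPT3, and the 2 lower ones were YSL1 copies. The median log2 difference was 0.29 over the copies and 0.00 over all genes considered. On a common sum, where the median of all genes was -0.32, 3 copies were higher and 4 lower, against 11.4% and 24.1% of all genes. Relative to that median 8 were higher and 4 lower, against 16.0% and 14.9%.

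For HEART over GLOB, 3 days apart, 0 copies were higher and 0 lower, where 4.89% of all genes considered were higher and 2.50% lower. The median log2 difference was -0.14 over the copies and 0.01 over all genes considered. Rescaling left both counts at 0, against 6.29% and 2.44% of all genes on a common sum and 5.55% and 2.93% relative to the median.

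From the heart stage to mature green seed 13 of the 22 copies passed the threshold. For MG over HEART, 6 copies were higher and 7 lower, where 17.4% of all genes considered were higher and 22.4% lower. The higher ones were both copies of FER2 and of OPT3 and 1 each of NRAMP3 and NRAMP4. The lower ones were 4 copies of FER3, 2 of FER1 and 1 of NRAMP3. The median log2 difference was -0.32 over the copies and -0.09 over all genes considered. On a common sum 3 copies were higher and 12 lower, against 6.87% and 49.1% of all genes. Relative to the median of all genes, which was -0.98, the numbers were 4 and 8, against 17.4% and 19.1%.

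For DS over MG, 3 copies were higher and 4 lower, where 19.0% of all genes considered were higher and 21.3% lower, shares of 13.6% and 18.2% of the copies. The higher ones belonged to FER1, FER2 and FER4, with 1 copy each, and the lower ones to OPT3 and NRAMP3, with 2 each. The higher FER1 copy was the low neighbour gene BnaN03g00220. The median log2 difference was 0.06 over the copies and -0.01 over all genes considered. Rescaled to a common sum, 5 copies were higher and 3 lower, against 28.9% and 11.6% of all genes. Relative to the median of all genes, which was 0.27, the numbers were 4 and 3, against 22.1% and 15.7%.

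Between the end points, DS over OV, 4 copies were higher and 9 lower, where 23.1% of all genes considered were higher and 25.5% lower. The 4 were the copies of FER2 and NRAMP4, and BnaN05g31440 had the largest difference, 8.33. The 9 were 4 copies of FER3, 2 each of OPT3 and YSL1, and 1 of NRAMP3. The median log2 difference was -0.60 over the copies and -0.03 over all genes considered. With a common sum 3 copies were higher and 14 lower, against 12.9% and 43.2% of all genes. Relative to the median of all genes, which was -0.73, the numbers were 5 and 8, against 23.0% and 26.6%.

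**Figure D4:**
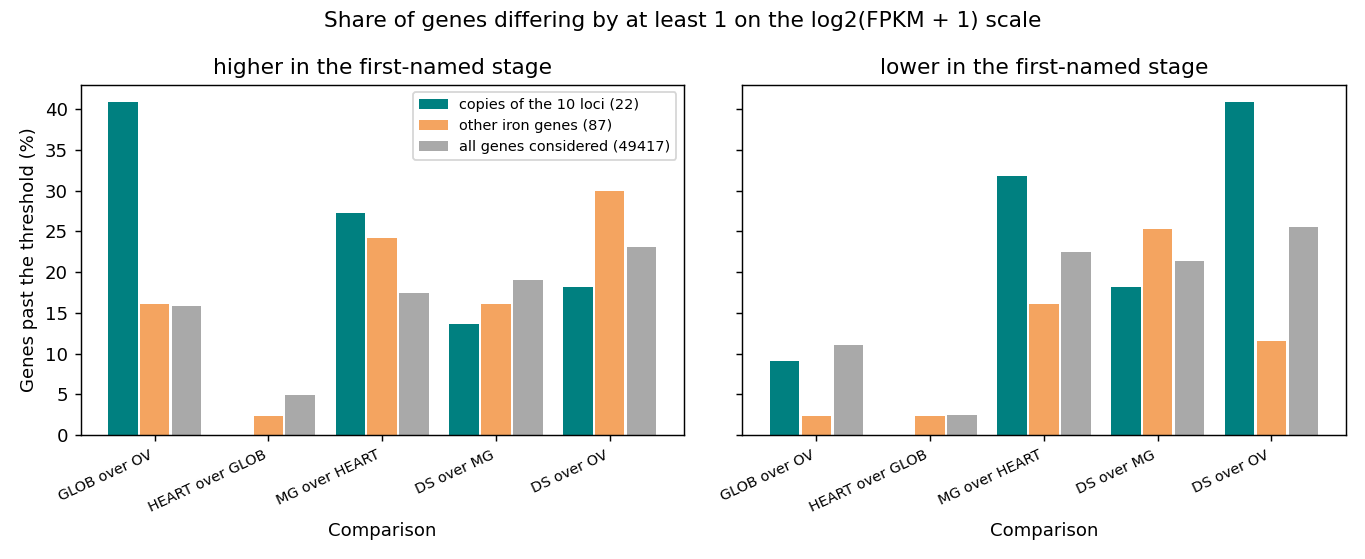
Percent of genes (vertical axis) that were higher (left) or lower (right) by at least 1 on the log2(FPKM + 1) scale in the first-named stage of each comparison, for the 22 copies, 87 other iron genes and all 49417 genes considered. For GLOB over OV 40.9% of the copies were higher, against 15.8% of all genes.

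The subgenomes shared the loci unequally. Over all 32 copies the C share of summed FPKM was 67.5% (OV), 61.4% (GLOB), 58.8% (HEART), 45.5% (MG) and 32.8% (DS). The low share in DS came with FER2, of which C held 29.8% in that stage and 41.6% in MG. FER3 had a C share of 62.0% (OV), 56.2% (HEART), 16.1% (MG) and 13.3% (DS), since the A copy BnaN09g40870 kept the higher values late. NRAMP3 went the other way, with C shares of 94.3% in MG and 52.3% in OV. The FER1 copies were nearly balanced, with C shares between 48.3% in OV and 57.6% in GLOB. YSL3 was C-biased at all stages, between 79.4% and 84.9%, and NRAMP4 was A-biased, with C shares between 14.6% and 33.0%. Reads shared by near-identical copies make these splits uncertain, and the sum over a locus less so.

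Other iron genes were followed through a list of 51 Arabidopsis loci, of which 44 were matched by 197 copies. Of these, 87 copies reached 1 FPKM in a stage. For GLOB over OV 14 were higher and 2 lower, for HEART over GLOB 2 and 2, for MG over HEART 21 and 14, for DS over MG 14 and 22, and for DS over OV 26 and 10. The shares over all genes were 15.8% and 11.0%, 4.89% and 2.50%, 17.4% and 22.4%, 19.0% and 21.3%, and 23.1% and 25.5% in the same order. Rescaled to a common sum, the other iron genes had 12 higher and 8 lower, 4 and 3, 9 and 33, 23 and 14, and 11 and 18. The shares over all genes on that scale were 11.4% and 24.1%, 6.29% and 2.44%, 6.87% and 49.1%, 28.9% and 11.6%, and 12.9% and 43.2%. The larger side thus turned in the last 3 comparisons, to the side that was also larger over all genes on that scale. Relative to the median of all genes the numbers were 17 and 3, 4 and 3, 22 and 12, 19 and 17, and 24 and 10. The shares over all genes were then 16.0% and 14.9%, 5.55% and 2.93%, 17.4% and 19.1%, 22.1% and 15.7%, and 23.0% and 26.6%. There the larger side turned for DS over MG. DS was the highest stage of 27 of the 87 copies and MG of 26, while GLOB was the highest stage of 7 of the 22 storage and transport copies and DS of 5. Over all genes considered, DS was the highest stage of 29.6%, MG of 19.5% and GLOB of 17.5%. Highest stages and the locus values of the lists below are on the deposited scale and were not rescaled. The FPKM of all genes was highest in MG, so modest differences between MG and other stages depend on that scale.

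In the uptake list, 4 of 30 copies reached 1 FPKM. NRAMP1, a plasma membrane importer of manganese and iron, had 3.19 FPKM (OV), 95.9 (GLOB), 107 (HEART), 28.0 (MG) and 7.28 (DS). FRO2, the ferric reductase of Arabidopsis roots, had 1.63 FPKM in HEART and 47.5 in MG, a log2 difference of 4.20 for MG over HEART, and 30.2 FPKM in DS. IRT1, the root iron importer, was highest in DS with 3.92 FPKM, and IRT2 was listed above 0 in MG alone, at 0.0512 FPKM.

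The chelation and long-distance list had 21 of 49 copies at 1 FPKM or more. For MG over HEART 9 of them were higher and 1 lower, against 17.4% and 22.4% of all genes. On a common sum the numbers were 6 and 5, against 6.87% and 49.1%. For DS over MG, 5 were higher and 10 lower, against 19.0% and 21.3%. On a common sum these were 5 and 7, against 28.9% and 11.6%. Relative to the median of all genes, MG over HEART had 13 higher and 1 lower, against 17.4% and 19.1%. DS over MG then had 5 and 8, against 22.1% and 15.7%. FPN1, an exporter that loads metals into the vasculature, had 1.49 FPKM in HEART, 30.3 in MG and 0.283 in DS. FRD3, a citrate exporter that keeps iron soluble in the xylem, had 3.25, 29.3 and 0.135 FPKM. As with OPT3, both were highest in MG and low in DS on the deposited scale. Their log2 differences for MG over HEART were 3.65 (FPN1) and 2.83 (FRD3), against 1.55 for OPT3. The OPT3 difference was 0.24 on a common sum, and the other 2 loci were not rescaled. The nicotianamine synthase loci were near 0, with NAS1, NAS3 and NAS4 below 1 FPKM throughout and NAS2 at 3.82 FPKM in DS and at most 0.0769 elsewhere.

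In the vacuole list, 15 of 30 copies reached 1 FPKM. For GLOB over OV 5 were higher and 0 lower, against 15.8% and 11.0% of all genes. On a common sum the numbers were 4 and 0, against 11.4% and 24.1%. For DS over MG 0 were higher and 6 lower, against 19.0% and 21.3%. On a common sum these were 2 and 4, against 28.9% and 11.6%. Relative to the median of all genes, GLOB over OV had 4 higher and 0 lower, against 16.0% and 14.9%. DS over MG then had 1 and 5, against 22.1% and 15.7%. MTP8, which moves manganese and iron into Arabidopsis seed vacuoles, had 12.6 FPKM (OV), 91.4 (GLOB), 45.4 (HEART), 4.61 (MG) and 1.86 (DS). In OV, GLOB and HEART, where VIT1 was listed at 0, MTP8 was above VTL1, VTL2, VTL4 and VTL5. VTL1, a relative of VIT1, had 0.253, 7.08, 9.15, 11.3 and 0.152 FPKM in the same order. YSL6, placed on internal membranes in Arabidopsis, had 14.4 FPKM (HEART), 91.9 (MG) and 89.1 (DS). Its copies differed in direction from MG to DS. BnaN09g02800 (A) had 56.9 FPKM in MG and 73.8 in DS, and BnaN19g02980 (C) 35.0 and 15.3.

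The plastid and mitochondrial list had 17 of 17 copies at 1 FPKM or more. For GLOB over OV 1 was higher and 0 lower, against 15.8% and 11.0% of all genes. On a common sum the numbers were 0 and 1, against 11.4% and 24.1%. Relative to the median of all genes they were 1 and 0, against 16.0% and 14.9%. For HEART over GLOB 0 passed the threshold on any of these scales, against 4.89% and 2.50%, or 6.29% and 2.44% on a common sum. For MG over HEART 3 were higher and 1 lower, against 17.4% and 22.4%. DS over MG had 4 and 4 (19.0% and 21.3%) and DS over OV 6 and 2 (23.1% and 25.5%). On a common sum these were 0 and 8 (6.87% and 49.1%), 7 and 1 (28.9% and 11.6%), and 2 and 5 (12.9% and 43.2%). Relative to the median of all genes they were 2 and 1 (17.4% and 19.1%), 5 and 2 (22.1% and 15.7%), and 4 and 2 (23.0% and 26.6%). PIC1, an iron importer of the plastid envelope, stayed between 33.2 FPKM in OV and 50.5 in MG. MIT2, a mitochondrial iron importer, was at 16.0 FPKM in HEART, 62.8 in MG and 24.6 in DS, while its relative MIT1 was at 31.5 in DS and 10.4 in MG. The MIT2 value in MG came mostly from BnaN15g04610, with 12.3 FPKM (HEART), 56.9 (MG) and 12.6 (DS). The other MIT2 copy, BnaN10g04760, was highest in DS, with 3.68, 5.91 and 12.0 FPKM. MAR1, a plastid member of the FPN family, had 38.2 FPKM in DS and 11.3 in MG, and the frataxin gene FH, of mitochondrial iron handling, was highest in GLOB at 44.2 and lowest in DS at 17.0. FRO7, the chloroplast ferric reductase, had 3.40 FPKM in HEART and 1.84 in GLOB.

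Among the regulators, 30 of 71 copies reached 1 FPKM. For MG over HEART 4 were higher and 6 lower (13.3% and 20.0%), close to the 17.4% and 22.4% of all genes. On a common sum the numbers were 0 and 11, against 6.87% and 49.1%. For DS over OV 10 were higher and 5 lower, against 23.1% and 25.5% of all genes. On a common sum these were 3 and 8, against 12.9% and 43.2%. Relative to the median of all genes, MG over HEART had 1 higher and 4 lower, against 17.4% and 19.1%. DS over OV then had 9 and 5, against 23.0% and 26.6%. ILR3, a bHLH factor that acts in iron deficiency and on ferritin genes in Arabidopsis, reached the highest value of this list, in MG. It had 63.8 FPKM (OV), 75.1 (GLOB), 90.6 (HEART), 202 (MG) and 156 (DS). PYE was above ILR3 in OV (79.2 FPKM) and GLOB (108 FPKM). BHLH115, of the same subgroup as ILR3, had 14.9, 49.6, 25.6, 1.82 and 0.453 FPKM, a log2 difference of -3.24 for MG over HEART. BHLH34 had 9.48 FPKM in DS and 29.0 in MG. BHLH39, 1 of the factors that act with FIT in roots, had 2.48 FPKM in GLOB and 0.0753 in OV and was listed at 0 in MG and DS. BTS, a ubiquitin ligase that binds iron and restrains the response, had 36.1 FPKM in DS and 13.7 in MG.

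**Figure D5:**
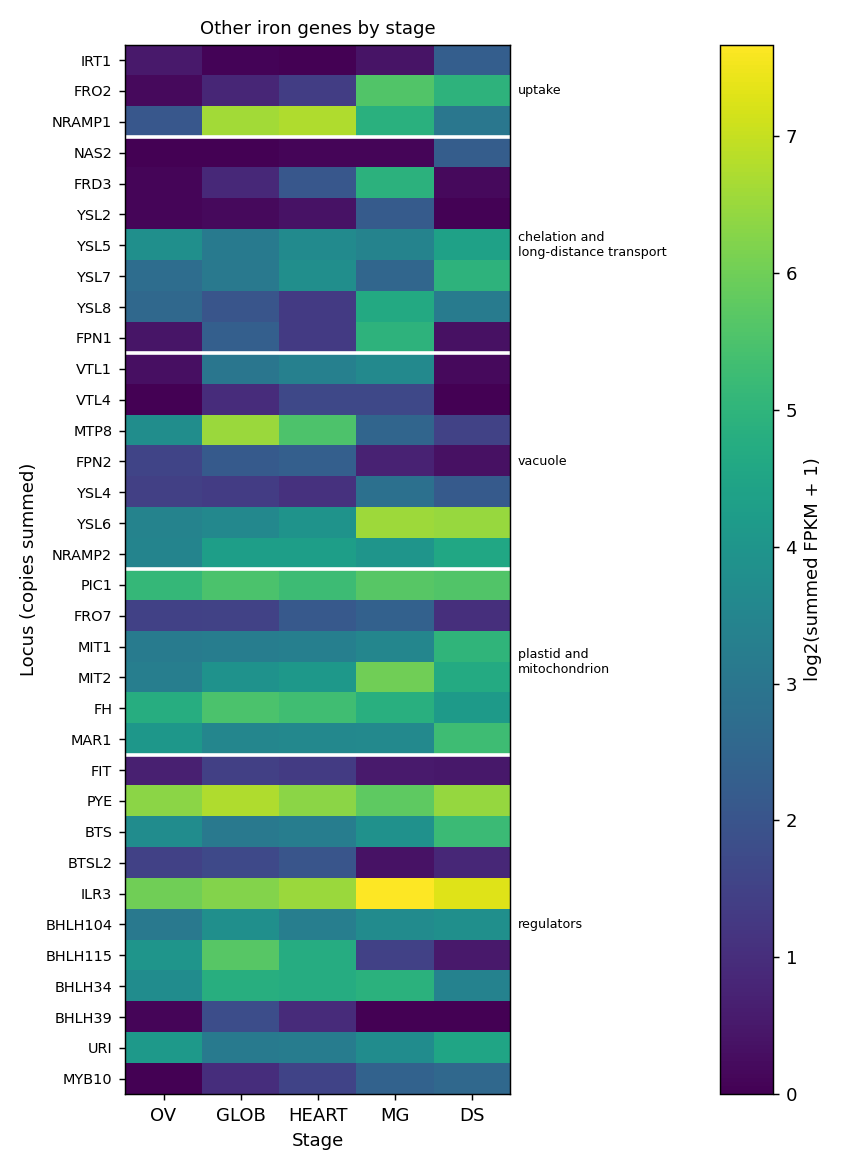
log2 of the summed FPKM + 1 (colour) of the other iron loci that reached 1 FPKM in a stage (rows, grouped by list) in the 5 stages (columns). NRAMP1 and MTP8 are bright in GLOB and HEART, FRD3 and FPN1 in MG, and YSL6 in MG and DS. ILR3 is bright in every stage and brightest in MG.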

How the data were processed

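The authors deposited 1 table of FPKM values for 96219 genes, with 1 value per gene and stage. Per the labels, single-end reads of 100 bases were trimmed with Trimmomatic (version 0.36), aligned with HiSat2 to the DH12075 genome and quantified with Cuffquant and Cuffdiff. The submitters' processing notes name TopHat2 and Cuffnorm instead. How libraries were combined, the annotation version and whether strand was used are not given in the sources used here. Another 2 columns of the table correspond to none of the 14 samples and were left aside.

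The planned limma tests, permutations and leaving out of libraries need values per library and could not be run. Stages were compared as differences of log2(FPKM + 1), counted at 1 or more, over genes with FPKM of at least 1 in a stage. FPKM was summed over the copies of a locus. Symbols were attached to loci from general knowledge of Arabidopsis nomenclature. Each DH12075 identifier holds a chromosome number, and for the subgenome each number took the Darmor letter most of its genes carry (at least 79.6%).

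The members and gene lists were chosen with earlier results of these data known. The text names every locus of the set, its highest copy, copies of at least 10 FPKM that peak in another stage than their locus, the largest difference in each comparison, and for each further list the highest locus and the largest difference per step. A few others were named after their values were seen: FER3 copy BnaN09g40870, NRAMP3 copy BnaN03g23460, second copies of a pair, and PIC1, MIT1, IRT2, BTS and the NAS loci. The copies of MIT2 and YSL6, and the locus PYE, were also named in this way. The planned search of promoter motifs was not run. Alternatives were a mean FPKM of at least 5 or no filter at all, a pseudocount of 0.1, rescaling by the median of ratios or to a common sum, quantile normalization, and other sets of copies. The counting was tested on simulated data built from genes of at least 10 FPKM in OV, with planted changes well above the threshold. That test does not cover low genes or differences near the threshold. Python 3.11.15, numpy 2.4.6, pandas 2.3.3 and matplotlib 3.10.9 were used.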

Additional observations from a re-analysis of the deposited data

How the results depend on the processing

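No paired analysis was possible because libraries have no values of their own in the deposited file, so neither a replicate block nor the leaving out of replicates gave a result. Of 21 locus differences past the threshold, 0 changed sign under any setting tried. A common sum took 5 of them below it (VIT1 in 2 comparisons, NRAMP3 for GLOB over OV, and NRAMP4 and OPT3 for MG over HEART) and brought 7 others past it. Leaving out the highest copy took 8 below it. Differences relative to the median on a common sum, and both rescalings of the shorter lists and of the zinc, manganese and copper list, were chosen after seeing the data. Counts and shares are described as moved at more than 1.5 times or 10 percentage points. By that measure the values that answer a comparison stayed in 158 cases and moved in 23. Some of the 158 could not move. These include 20 ferritin shares on a common sum and 20 over copies with a Darmor identifier, which every ferritin copy has. They also include 5 unfiltered counts of storage and transport copies and 5 of other iron genes. A gene below 1 FPKM in every stage cannot pass the threshold. Counts of copies past the threshold add both directions. A common sum shifted the split of higher against lower by over 10 percentage points in 8 of 9 counts and turned the larger side in 5 (storage and transport copies for GLOB over OV and DS over MG, other iron genes for MG over HEART, DS over MG and DS over OV), as printed beside them. Of 345 alternative locus differences 61 moved, 23 of them on a common sum and 19 without the highest copy.

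Copies past the threshold for GLOB over OV numbered 7 both on a common sum and with a mean FPKM of at least 5 (11 as reported). For HEART over GLOB a pseudocount of 0.1 gave 1, and for DS over MG that mean gave 4 (7 as reported). With fewer genes considered, the mean of at least 5 gave 9 other iron genes for GLOB over OV, 2 for HEART over GLOB, 15 for MG over HEART, 14 for DS over MG and 23 for DS over OV, against 16, 4, 35, 36 and 36 as reported. A pseudocount of 0.1 gave 31 of them for GLOB over OV and 14 for HEART over GLOB, where a common sum gave 7, also relative to the median. At 5 FPKM, 11 storage and transport copies were detected in OV, 11 in HEART and 9 in DS, and at 0.1 FPKM 22 in DS. With the letter of the Darmor identifier the C share was 100% for VIT1 in MG, 72.4% for FER3 in OV, 30.9% in MG and 27.6% in DS, and 94.1% for YSL1 in GLOB and 96.7% in HEART. The depth of the libraries is unknown, so no limit can be set for genes listed at 0.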

Other observations

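Transporters of zinc, manganese and copper, a list of 14 loci of which 13 had a gene in the table, were added with the iron results in view. Of their 56 copies, 27 reached 1 FPKM. For GLOB over OV 8 were higher and 0 lower, where 15.8% of all genes considered were higher and 11.0% lower. For HEART over GLOB the numbers were 4 and 0 (4.89% and 2.50% of all genes), for MG over HEART 6 and 8 (17.4% and 22.4%), for DS over MG 1 and 16 (19.0% and 21.3%) and for DS over OV 4 and 9 (23.1% and 25.5%). Rescaled to a common sum they were 6 and 2, 8 and 0, 2 and 11, 2 and 8, and 2 and 11 in the same order. The shares over all genes on that scale were 11.4% and 24.1%, 6.29% and 2.44%, 6.87% and 49.1%, 28.9% and 11.6%, and 12.9% and 43.2%. Relative to the median of all genes the numbers were 7 and 0, 6 and 0, 5 and 5, 2 and 12, and 4 and 8. The shares were then 16.0% and 14.9%, 5.55% and 2.93%, 17.4% and 19.1%, 22.1% and 15.7%, and 23.0% and 26.6%. ZIP4, a zinc importer, had 22.1 FPKM (OV), 62.9 (GLOB), 39.9 (HEART), 392 (MG) and 29.2 (DS). COPT5, which moves copper out of vacuolar compartments in Arabidopsis, had 18.7, 73.7, 69.7, 172 and 43.6 FPKM in the same order. Like OPT3, both were highest in MG and lower in DS on the deposited scale. The FPKM of all genes was also highest in MG, 1.51e+06 against 593838 in HEART. The locus values of this list were not rescaled, so a smaller MG peak such as that of COPT5 depends on the scale. ZIF1, which moves nicotianamine into vacuoles, was highest in DS, with 48.1 FPKM there and 27.0 in MG. ZIP1 and MTP11 were highest early, ZIP1 at 23.5 FPKM in GLOB and MTP11 at 25.3 in HEART, and stood at 1.14 and 3.87 FPKM in DS. HMA4, a zinc pump of the vasculature, had 14.3 FPKM in HEART, 9.83 in MG and 0.0360 in DS.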
